A study of Daphnia magna with 27 samples.

Results

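The 250 brightest clones without a gene name in the Rep library of a Daphnia magna cDNA array are described here across zinc exposure and across control generations. Each clone is a spotted cDNA fragment, called a reporter, whose identifier gives a library token (Rep, Ene or Mol, not spelled out in the sources used here), a plate (ASP number) and a well. Of 2261 reporters, 729 carry the token Rep, 702 of these have no gene name, and 679 of those were tested in all 4 comparison tables of the authors. The 250 with the highest mean of the tables' average log2 intensity (AveExpr) were taken, and 429 dimmer ones were left. The name column was empty for 235 of the 250 and read "unknown" for 15. The clones were chosen by this brightness alone, so their brightness is a description. The tables' fold changes were not used in the choice, but a bright spot has a smaller error: the median standard error of a log2 change in the authors' deposited table for zinc was 0.10 for the bright Rep clones and 0.15 for all reporters. For this reason the share of clones called in these tables is set beside that of all reporters, and nothing is read from the gap.

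Water fleas of 1 clone, K6, lived for 3 generations in modified M4 medium, either plain or carrying 388 µg/L of zinc, and 3 samples of 10 whole adults were taken per group. The labels give 9 groups. ZnF0 adults, kept in zinc, were 23 days old. CtrlF1 adults were 22 days old, CtrlF2 adults 20 days and CtrlF0 adults 20 days, all in control medium. Zn(+)F1 adults, 21 days old, were offspring of ZnF0 kept in zinc, and Zn(-)F1 adults, also 21 days old, were offspring of ZnF0 returned to control medium. Zn(+)F2 (21 days) stayed in zinc as offspring of Zn(+)F1, Zn(+/-)F2 (22 days) were offspring of Zn(+)F1 moved to control medium, and Zn(-/-)F2 (22 days) were offspring of Zn(-)F1 in control medium. Age therefore moved with group in every comparison except CtrlF2 vs CtrlF0, and age and group cannot be told apart. The sources do not state separate cultures for the 3 samples of a group, and p-values therefore measure the spread between these samples, which may be technical.

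Each sample was hybridised on a 2-colour array against 1 common reference pool of daphnids of 3 ages, so each array value is a log2 ratio of sample over pool. Daphnia reproduce clonally in culture, and whole-body RNA mixes all tissues with the developing brood. In such bulk samples fewer cells of a type and less RNA per cell cannot be told apart. Adult females make vitellogenin (vtg), the precursor of yolk protein, and load it into eggs. Zinc is an essential metal that becomes toxic in excess. A cDNA library samples transcripts by abundance, and an abundant transcript can be present as several clones. Whether clones with alike profiles here come from 1 transcript was not tested.

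The arrays differed in ways that touch the values below. The CtrlF0 columns of replicates 1 and 3 hold the same values in every reporter within 0.001 and were counted as 1 sample, which leaves 2 CtrlF0 samples. The sources used here do not state whether the authors' deposited tables with CtrlF0 counted them as 2 samples. If so, the p-values of those tables would count 1 array 2 times. Counts of the array fit with both columns as separate samples are in the closing section. The second Zn(+)F1 array has no value for any Rep clone, which leaves 2 Zn(+)F1 samples, and its correlation with the group's other arrays was -0.02 and -0.10. The 6 arrays of Zn(+)F2 and CtrlF2 had medians 0.31 to 0.40 away from 0 in absolute value, with a sign that followed the dye of the sample, and held ratios as extreme as -45.1 and 23.1. The median of every other array with Rep values lay within 0.04 of 0. For display, each array's median over all reporters was subtracted, and values per array below are these centred log2 ratios. Samples of ZnF0, CtrlF1 and CtrlF0 were all labelled with Cy5 and those of Zn(+)F1 and Zn(-)F1 with Cy3, while the F2 groups held both dyes. Every ratio was read as sample over pool with its sign as deposited. For Zn(+)F1 and Zn(-)F1 this direction could not be checked against the authors' tables. In 1 pair of arrays of the same dye, ZnF0 replicate 1 and CtrlF2 replicate 3, the correlation over all reporters was -0.32.

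The bright Rep clones covered nearly the whole upper range of the array. Their mean AveExpr ran from 8.28 to 15.05 with a median of 9.74 on the log2 scale, in the authors' deposited tables. The dimmer unnamed Rep clones had a median of 6.69, the 27 named Rep reporters 6.61, the 250 brightest unnamed Ene clones 10.3, and the 250 brightest unnamed Mol clones 9.61. The brightest clone was EBT_DamaRep_ASP2 A4, at 15.05, and had a value on 13 of the 25 arrays with Rep values. Of its centred ratios, ZnF0 replicate 2 had -0.05, the 3 CtrlF1 arrays had -0.32, -0.27 and -0.26, CtrlF2 replicate 1 had -0.24, and CtrlF0 replicate 1 had 0.58. CtrlF0 was thus the highest of these 4 groups, from a single array. A missing value was not spread evenly: 21 clones lacked a value on at least 1 array, and 10 of these were among the 50 brightest. At the limit of brightness, EBT_DamaRep_ASP7 A8 was the last inside at 8.28 and EBT_DamaRep_ASP5 B10 the first outside at 8.22.

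**Figure D1:**
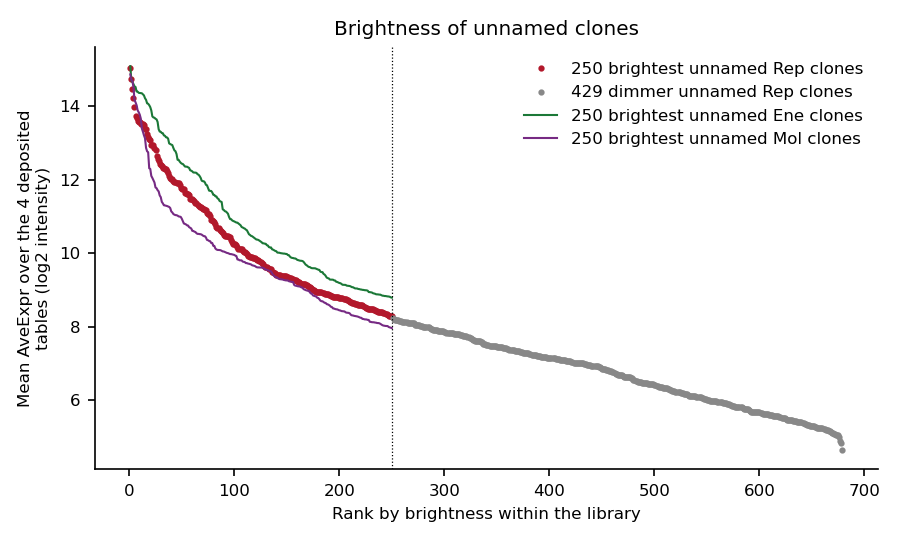
Mean AveExpr over the authors' 4 deposited tables (log2 intensity, vertical axis) against rank within the library (horizontal axis), 1 point per unnamed Rep clone, with lines for the bright Ene and Mol clones. The bright Rep clones (red, 8.28 to 15.05) lie between the Ene line and the Mol line over most ranks, and the dotted line marks the limit.

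The clones came from all 9 plates of the Rep library. Plate 2 gave the most, 48 of its 95 unnamed reporters, and plate 1 gave 36 of 79, while plates 8 and 9 gave 10 of 49 and 10 of 54. By plate row, the counts lay between 24 in row D and 37 in row B. Brightness differed by table in some clones: the highest minus the lowest of the 4 AveExpr values had a median of 0.75 and was over 2 in 12 clones. Replicate spread was of similar size in most groups, with a median SD over the clones between 0.09 in Zn(+)F1 (n = 2) and 0.24 in Zn(+/-)F2 (n = 3). In CtrlF2 and Zn(+)F2 it was 0.15 and 0.14, below the 0.24 and 0.28 over all reporters.

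In zinc, bright Rep clones split into a set that was higher and a set that was lower than in F0 controls. The authors' deposited table called 123 of the 250 clones at an adjusted p under 0.05 in ZnF0 against CtrlF0, with 53 higher and 70 lower. Whether it counted the repeated CtrlF0 column as a separate sample is not stated. Of all reporters in that table, 33.2% were called (16.8% higher, 16.4% lower). The same table called 147 of the 250 bright Ene clones (31 higher, 116 lower), 128 of the 250 bright Mol clones (55 higher, 73 lower) and 76 of the 429 dimmer Rep clones (50 higher, 26 lower). Over the bright Rep clones the deposited log2 changes ran from -1.56 to 1.32 with a median of -0.03, against a median of 0.02 over all reporters in the authors' deposited table. Higher calls outnumbered lower ones only among the 50 brightest, with 19 higher and 11 lower in the authors' deposited table. In the next steps of 50 by brightness, 13 were higher and 14 lower, 6 and 15, 9 and 16, and 6 and 14. Of the 53 higher calls, 41 belonged to 1 group of clones with alike profiles, described below.

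The single arrays gave the same direction with larger errors. A limma fit over all distinct arrays with a term for the sample's dye called 18 of 249 clones in ZnF0 against CtrlF0, 1 higher and 17 lower, against 4.53% of all reporters (1.27% higher, 3.26% lower). With arrays centred on their median it called 50 clones, 11 higher and 39 lower, against 10.8% of all reporters (2.72% higher, 8.11% lower). The median standard error was 0.23 in this fit and 0.18 after centring. The difference of the array means had the sign of the deposited log2 change in 226 of 249 clones. A fit on these 2 groups alone called 25 clones, of which 14 were higher, and 28 after centring, of which 15 were higher, so the balance of directions depended on the model. The count of 18 was 1 without the dye term and depended on single arrays: it was 3 without ZnF0 replicate 1, 2 without ZnF0 replicate 3, 1 without CtrlF0 replicate 1 and 8 without CtrlF0 replicate 2.

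EBT_DamaRep_ASP5 A9 was the only clone called higher in zinc in the fit over all arrays with values as deposited, where a fit on these 2 groups alone called 14 higher. Its centred log2 ratios were 0.50, 0.46 and 0.59 on the ZnF0 arrays, against -0.27 and -0.26 on the CtrlF0 arrays. All 3 ZnF0 arrays lay above both CtrlF0 arrays. The fitted log2 difference was 0.82 ± 0.21 (SE; limma adjusted p = 0.0365), a 1.76-fold higher level, and the adjusted p over its 17 alternatives ran from 2.25e-09 to 0.307. The reporter most alike over 25 arrays was another bright Rep clone of the same plate, EBT_DamaRep_ASP5 E11, with Pearson's r = 0.98, and 36 bright Rep clones correlated with it at over 0.9.

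EBT_DamaRep_ASP1 A12 had the largest fall. It had -0.33, 0.03 and -0.16 on the ZnF0 arrays, against 1.26 and 1.69 on the CtrlF0 arrays. The groups did not overlap, and the CtrlF0 arrays also stood above all CtrlF1 and CtrlF2 arrays. In the fit it fell by 1.59 ± 0.24 on the log2 scale (SE; limma adjusted p = 0.000979), and it passed in all 17 alternatives, with adjusted p up to 0.0236. No reporter correlated with it at over 0.9: the most alike was an unnamed Ene clone, EBT_DamaEne_ASP6 E1, at r = 0.75 over 25 arrays.

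EBT_DamaRep_ASP4 B5 was the second by size of fall among the called clones. Its ratios were 0.52, 0.06 and -0.14 in ZnF0, against 1.54 and 1.26 in CtrlF0. Again the ZnF0 arrays lay below both CtrlF0 arrays, with a wider spread than between the CtrlF0 arrays. It fell by 1.22 ± 0.33 (SE; limma adjusted p = 0.0454), and the call was lost on leaving out any 1 of the 5 arrays. Its most alike reporter, EBT_DamaRep_ASP4 H2, is a bright Rep clone on the same plate (r = 0.91 over 25 arrays).

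**Figure D2:**
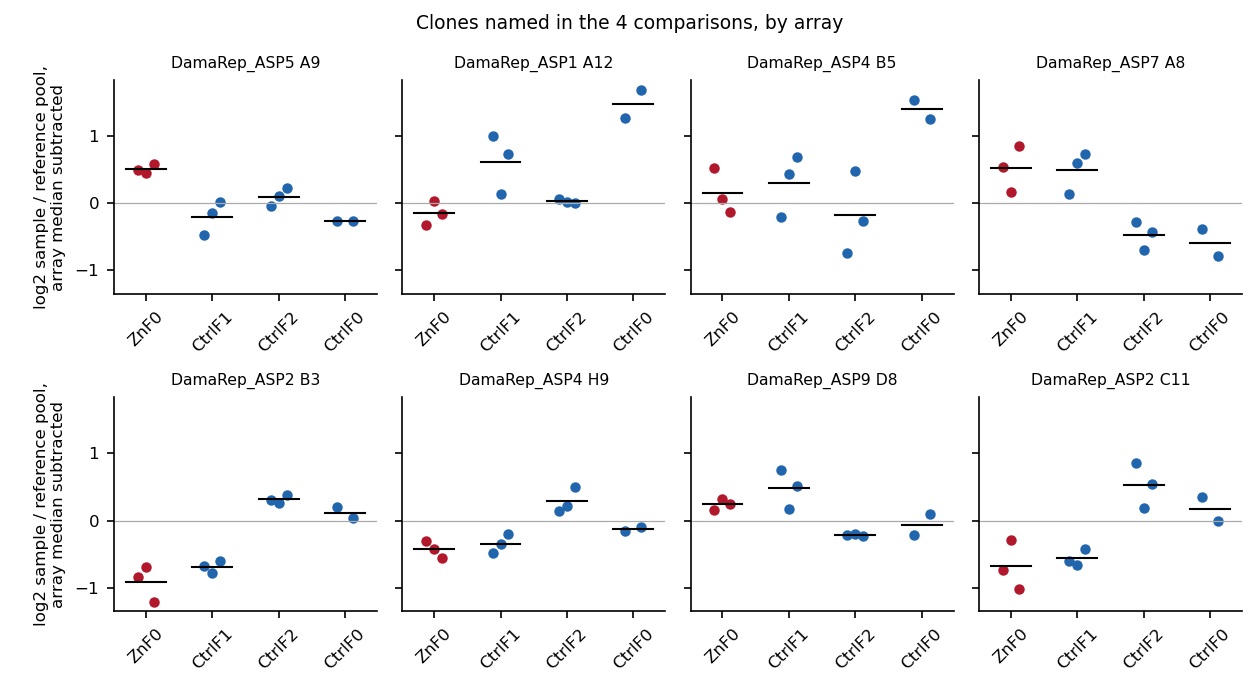
Centred log2 ratio of sample over reference pool (vertical axis) for the 8 clones named in the 4 comparisons, 1 point per array and a bar for the group mean, with ZnF0 in red and control groups in blue. In EBT_DamaRep_ASP1 A12 both CtrlF0 arrays (1.26 and 1.69) stand above all other arrays shown, and in EBT_DamaRep_ASP2 B3 the ZnF0 and CtrlF1 arrays lie below the CtrlF2 and CtrlF0 arrays.

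Between the first control generations, the bright Rep clones called by the authors were mostly lower in CtrlF1. The authors' deposited table called 86 of 250 in CtrlF1 against CtrlF0, 10 higher and 76 lower, where 25.0% of all reporters were called, 12.1% higher and 12.9% lower. In that authors' deposited table the bright Ene clones had 37 higher and 69 lower, and the bright Mol clones 59 higher and 58 lower. The median deposited log2 change in the authors' deposited table was -0.10 over the bright Rep clones and 0.01 over all reporters. The limma fit on single arrays called 0 of 249 clones and 0.0% of all reporters. It had 42 of 249 clones at an unadjusted p under 0.05. The same held for 252 of 2212 reporters, 51 of 248 bright Ene clones and 44 of 250 bright Mol clones in this fit. After centring it called 17 clones, 1 higher and 16 lower, against 3.71% of all reporters (1.04% higher, 2.67% lower). Without CtrlF0 replicate 2 or without CtrlF1 replicate 2, the count as deposited was 1. The clone with the smallest p in each direction did not pass in the fit on single arrays with values as deposited. The authors' deposited table called both, with an adjusted p of 3.08e-07 for EBT_DamaRep_ASP2 B3 and 1.37e-05 for EBT_DamaRep_ASP7 A8. EBT_DamaRep_ASP2 B3 had -0.68, -0.78 and -0.61 on the CtrlF1 arrays, against 0.20 and 0.03 on the CtrlF0 arrays. Its log2 difference was -0.80 ± 0.18 (SE; limma adjusted p = 0.0894), with an adjusted p of 0.00766 after centring. EBT_DamaRep_ASP7 A8 had 0.14, 0.60 and 0.74 in CtrlF1, against -0.39 and -0.79 in CtrlF0. Neither clone's groups overlapped. The log2 difference of EBT_DamaRep_ASP7 A8 was 1.08 ± 0.38 (SE; limma adjusted p = 0.233), and 0.0461 was its adjusted p after centring.

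CtrlF2 and CtrlF0 were of the same age. For CtrlF2 against CtrlF0 the authors' deposited table called 36 of 250 clones, 20 higher and 16 lower, where 12.5% of all reporters were called (5.1% higher, 7.39% lower). Bright Ene and Mol clones had 11 and 6 higher, and 39 and 53 lower, in that authors' deposited table. The fit on single arrays called 1 of 249 clones, against 0.856% of all reporters (0.586% higher, 0.27% lower), and after centring also 1, against 1.62% (0.766% higher, 0.856% lower). This clone was again EBT_DamaRep_ASP1 A12, which averaged 0.03 ± 0.03 in CtrlF2 (SD, n = 3) and 1.48 ± 0.30 in CtrlF0 (SD, n = 2), and fell by 1.35 ± 0.26 (SE; limma adjusted p = 0.0224). This comparison shares its CtrlF0 arrays with the zinc comparison. The call was lost without either CtrlF0 array. EBT_DamaRep_ASP4 H9 had the smallest p among the clones above CtrlF0 and did not pass: 0.14, 0.21 and 0.51 in CtrlF2, against -0.16 and -0.10 in CtrlF0, a log2 difference of 0.76 ± 0.19 (SE; limma adjusted p = 0.0635). All 3 CtrlF2 arrays lay above both CtrlF0 arrays, and the authors' deposited table has 0.39 for this clone with an adjusted p of 0.0396. Counts without 1 array ran from 0 (CtrlF0 replicate 1) to 4 (CtrlF0 replicate 2), with 2 without CtrlF2 replicate 1 and 3 without CtrlF2 replicate 2.

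CtrlF1 stood below CtrlF2 in most of the bright Rep clones that were called. The authors' deposited table called 88 of 250 in CtrlF1 against CtrlF2, 15 higher and 73 lower, where 30.8% of all reporters were called, 14.8% higher and 16.0% lower. In the authors' deposited table the bright Ene clones split 65 higher and 65 lower and the bright Mol clones 86 higher and 43 lower. The fit on single arrays called 48 of 250 clones, all lower in CtrlF1, against 13.1% of all reporters (4.32% higher, 8.77% lower), and the median of all reporters was itself at -0.13. After centring it called 49, 4 higher and 45 lower, against 17.6% of all reporters (8.9% higher, 8.68% lower). The count fell to 20 to 26 when any 1 CtrlF1 array was left out and to 5 without CtrlF2 replicate 3, and it was 6 without the dye term.

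EBT_DamaRep_ASP2 C11 had the largest fall among the called clones, with -0.60, -0.66 and -0.42 in CtrlF1, against 0.85, 0.18 and 0.54 in CtrlF2. It fell by 1.35 ± 0.24 (SE; limma adjusted p = 0.00321), while the authors' deposited table has -1.09 with an adjusted p of 0.244. EBT_DamaRep_ASP2 B3 had -0.68, -0.78 and -0.61 in CtrlF1, against 0.31, 0.26 and 0.38 in CtrlF2, and fell by 1.24 ± 0.18 (SE; limma adjusted p = 0.00179). For both clones the highest CtrlF1 array lay below the lowest CtrlF2 array. No clone was called higher in the fit over all arrays as deposited. The smallest p among clones above CtrlF2 was that of EBT_DamaRep_ASP9 D8, with 0.75, 0.17 and 0.52 in CtrlF1, against -0.22, -0.21 and -0.23 in CtrlF2. Its CtrlF2 arrays were close together and below all CtrlF1 arrays, and the log2 difference was 0.59 ± 0.21 (SE; limma adjusted p = 0.0738), or 0.73 with an adjusted p of 0.00686 after centring. For this clone the authors' deposited table has 0.55 with an adjusted p of 0.000799.

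**Figure D3:**
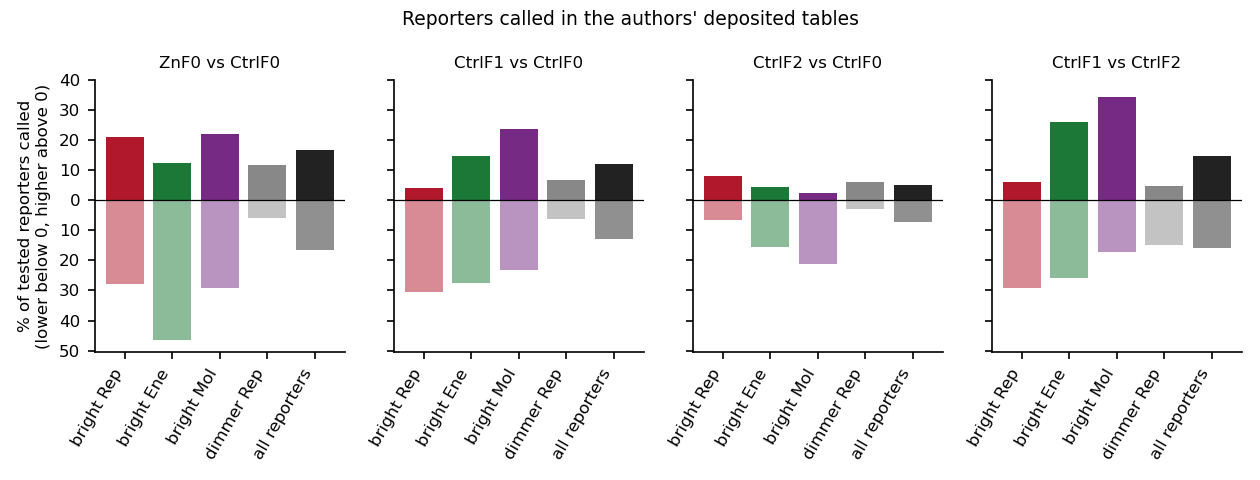
Share of tested reporters called at an adjusted p under 0.05 in the authors' 4 deposited tables (vertical axis, %), higher in the first-named group above 0 and lower below 0, for the bright Rep clones, 3 other sets and all reporters. In the comparisons with CtrlF1 first, few bright Rep clones were higher (10 and 15 of 250) and many lower (76 and 73).

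The zinc comparison and CtrlF1 against CtrlF2 share no arrays, and their lists could be set against each other. In both, the first-named group was the older one (23 against 20 days, and 22 against 20 days). Of 70 clones lower in ZnF0 in the authors' deposited table, 49 (70.0%) were also lower in CtrlF1 than in CtrlF2, which is 67.1% of the 73 lower there. Of the 53 higher in ZnF0 in the authors' deposited table, 6 (11.3%) were also higher in CtrlF1, or 40.0% of the 15 higher there. By the authors' deposited table, only 1 called clone went in opposite directions, lower in ZnF0 and higher in CtrlF1. Over all reporters in the authors' deposited table, 182 were lower in both, 50.0% of those lower in ZnF0 and 50.7% of those lower in CtrlF1, and 155 were higher in both (41.4% and 46.7%). Lower calls shared in the authors' deposited table were 56 among the bright Ene clones (48.3% of 116 and 86.2% of 65) and 37 among the bright Mol clones (50.7% of 73 and 86.0% of 43). In the authors' deposited table the bright Ene clones shared 25 higher calls (80.6% of 31 and 38.5% of 65) and the bright Mol clones 48 (87.3% of 55 and 55.8% of 86). After centring, the array fit shared 25 lower clones, 64.1% of 39 and 55.6% of 45.

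Groups with a zinc history in the later generations, which none of the 4 deposited tables compares, were each set against the control of their generation. Zn(-/-)F2, raised in control medium after a zinc-exposed grandmother generation, gave the count that moved least when arrays were left out. The fit called 64 of 249 clones in Zn(-/-)F2 against CtrlF2, 8 higher and 56 lower, where 9.93% of all reporters were called, 4.92% higher and 5.01% lower. After centring it called 98, 10 higher and 88 lower, against 17.4% of all reporters (6.78% higher, 10.6% lower). Leaving out 1 array gave 49 to 70 calls, and a fit on these 2 groups alone gave 0 as deposited and 65 after centring, 3 of them higher. The median centred ratio over the bright Rep clones was -0.28, -0.25 and -0.21 on the Zn(-/-)F2 arrays, against -0.05, 0.10 and 0.13 on the CtrlF2 arrays. On the Zn(-/-)F2 arrays the medians of the bright Ene clones were -0.02, 0.07 and 0.07, and those of the bright Mol clones -0.01, -0.11 and -0.09. EBT_DamaRep_ASP2 C7 had -1.65, -1.29 and -0.95 in Zn(-/-)F2, against 0.01, 0.17 and 0.45 in CtrlF2, and fell by 1.41 ± 0.21 (SE; limma adjusted p = 0.000791). EBT_DamaRep_ASP6 B2 had -0.09, 0.68 and 0.35 in Zn(-/-)F2, against -6.53, -1.41 and -1.29 in CtrlF2, and rose by 3.50 ± 0.84 (SE; limma adjusted p = 0.0119). Neither pair of groups overlapped, and 1 CtrlF2 array of the second clone stood far below its 2 companions.

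Offspring of Zn(+)F1 moved to control medium, Zn(+/-)F2, gave 8 calls of 250 clones against CtrlF2, 6 higher and 2 lower, with 1.46% of all reporters called (0.974% higher, 0.487% lower). After centring it was 9, 7 higher and 2 lower, against 2.83% (2.04% higher, 0.797% lower). The count was 2 without Zn(+/-)F2 replicate 2 and 0 in a fit on these 2 groups alone. EBT_DamaRep_ASP7 C2 had 0.54, 1.67 and 0.66 in Zn(+/-)F2, against -1.18, -1.34 and -0.94 in CtrlF2, with no overlap. It rose by 2.02 ± 0.34 (SE; limma adjusted p = 0.00763), a 4.07-fold difference. EBT_DamaRep_ASP8 E4 had -0.31, 0.05 and -0.34 in Zn(+/-)F2, against 0.58, 0.24 and 0.92 in CtrlF2, and fell by 0.86 ± 0.21 (SE; limma adjusted p = 0.04). The same clone had -0.47, -0.22 and -0.10 in Zn(+)F2, and against the same CtrlF2 arrays it fell by 0.86 ± 0.21 (SE; limma adjusted p = 0.0307). All 6 arrays of these groups lay below the 3 CtrlF2 arrays.

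Zn(+)F2, in zinc for 3 generations, gave 3 calls of 250 against CtrlF2, 2 higher and 1 lower, with 3.19% of all reporters called (2.3% higher, 0.886% lower), and 9 after centring, 7 higher and 2 lower, against 6.11% (3.59% higher, 2.52% lower). The count was 1 without CtrlF2 replicate 1, 29 without CtrlF2 replicate 3 and 20 without Zn(+)F2 replicate 3. The larger rise of the called clones, in EBT_DamaRep_ASP8 E1, had ratios of 1.49, 11.0 and 4.85 in Zn(+)F2, against -1.15, -2.52 and 1.40 in CtrlF2. Its log2 difference of 6.20 ± 1.48 (SE; limma adjusted p = 0.0297) rested on arrays with extreme values, and its lowest Zn(+)F2 array stood just above its highest CtrlF2 array.

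In the F1 generation all zinc samples were labelled with Cy3 and all controls with Cy5, so the dye term, estimated from the F2 groups, entered these differences in full. As deposited, 77 of 248 clones were called in Zn(+)F1 against CtrlF1, 76 higher and 1 lower, with 13.7% of all reporters called (12.9% higher, 0.803% lower) and a median over all reporters of 0.37. After centring 41 were called, 38 higher and 3 lower, against 8.92% (5.76% higher, 3.17% lower). The count as deposited was 9 without the dye term, 30 without Zn(+)F1 replicate 3, 45 without Zn(+)F1 replicate 1 and 49 without CtrlF1 replicate 1. EBT_DamaRep_ASP5 C3 had 0.65 and 0.82 in Zn(+)F1, against -1.11, -0.34 and 0.11 in CtrlF1. It rose by 1.68 ± 0.34 (SE; limma adjusted p = 0.00502), and by 1.35 after centring (adjusted p = 0.0327). EBT_DamaRep_ASP7 A8 had -1.43 and -0.78 in Zn(+)F1, against 0.14, 0.60 and 0.74 in CtrlF1. It fell by 1.47 ± 0.45 as deposited (SE; limma adjusted p = 0.038), and by 1.81 after centring (limma adjusted p = 0.0045). Both clones had groups that did not overlap.

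Zn(-)F1, returned to control medium, was set against the same CtrlF1 arrays with the same difference in dye, and how far it differed from Zn(+)F1 was not tested. As deposited, 43 of 249 clones were called, 42 higher and 1 lower, with 12.3% of all reporters called (10.3% higher, 2.01% lower) and a median over all reporters of 0.33. After centring 18 were called, 14 higher and 4 lower, against 10.2% (4.95% higher, 5.21% lower). The count as deposited was 6 without the dye term, 24 without CtrlF1 replicate 1, 22 without Zn(-)F1 replicate 2 and 24 without Zn(-)F1 replicate 3. EBT_DamaRep_ASP2 B3 had 0.16, 0.17 and 0.20 in Zn(-)F1, against -0.68, -0.78 and -0.61 in CtrlF1. It rose by 1.36 ± 0.20 as deposited (SE; limma adjusted p = 0.0014), and by 1.02 after centring (limma adjusted p = 0.00137). EBT_DamaRep_ASP7 A8 had -1.54, -1.57 and -1.39 in Zn(-)F1, against 0.14, 0.60 and 0.74 in CtrlF1, and fell by 1.86 ± 0.42 (SE; limma adjusted p = 0.00957). The spread within Zn(-)F1 was far below the gap to CtrlF1 for both clones.

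Many bright Rep clones had nearly the same profile over the arrays. Of 30628 clone pairs, 1067 (3.48%) correlated at over 0.9 across up to 25 arrays, against 1.12% of pairs of bright Ene clones and 0.99% of pairs of bright Mol clones. Without the CtrlF2 and Zn(+)F2 arrays the gap was smaller, with 3.76% for Rep, 1.67% for Ene and 1.88% for Mol. The arrays share the reference pool, and pairs within a set are not independent, so these shares are a description. When clones were joined by average linkage at a mean correlation of 0.8, a grouping made after the values were seen, 107 clones fell into 5 likeness groups of at least 6 and 81 stood alone. The groups are described below without tests.

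The first likeness group held 51 clones, 20.4% of the bright Rep clones, from 7 plates, with a median brightness of 11.2. Its median centred ratio was 0.50, 0.48 and 0.35 on the ZnF0 arrays, against -0.00132 and -0.04 on the CtrlF0 arrays. On the Zn(-/-)F2 arrays it was -1.44, -1.25 and -0.83, against -0.17, 0.12 and 0.36 in CtrlF2. Every clone of the group lay below 0 on all 3 Zn(-/-)F2 arrays, and 43 to 50 of the 51 lay above 0 on the ZnF0 arrays. Animals kept in zinc were high in later generations as well, at 0.32 and 0.59 in Zn(+)F1, against -0.38, -0.07 and 0.04 in CtrlF1, and at 0.71, 0.64 and 0.58 in Zn(+)F2. Animals moved out of zinc lay lower than these, at -0.35, 0.20 and 0.12 in Zn(-)F1, and at -0.39, -0.06 and -0.15 in Zn(+/-)F2. How far they differed from animals kept in zinc was not tested. In the fit on centred arrays, Zn(-)F1 was above CtrlF1 in all 51 clones (median 0.35). Of these clones, 11 were called as deposited and 0 after centring. Zn(+/-)F2 was below CtrlF2 in all 51 (median -0.37), with 0 called. For Zn(+)F2 against CtrlF2, 0 of the 51 were called as deposited and 1 after centring. In the authors' deposited table for zinc, 41 of the 51 were called, all higher, out of the 53 higher calls among the bright Rep clones. For ZnF0 against CtrlF0 the fit on single arrays called 1 of the 51 as deposited and 9 after centring, all higher. For Zn(+)F1 against CtrlF1, which differed in dye, it called 49 as deposited and 29 after centring, all higher. In the fit on single arrays 49 of the 51 were called in Zn(-/-)F2 against CtrlF2, all lower, and 51 after centring.

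Among named reporters, the profile of the first group was most like that of vtg precursor (r = 0.97) and of a reporter named vtg (r = 0.97), both over 25 arrays. Without the CtrlF2 and Zn(+)F2 arrays the correlations were 0.97 and 0.96. Vtg precursor itself had 0.61, 0.51 and 0.54 on the ZnF0 arrays, against 0.18 and -0.05 on the CtrlF0 arrays. It had -1.52, -1.24 and -0.75 in Zn(-/-)F2, against -0.16, 0.21 and 0.32 in CtrlF2. The next named reporter, also called vtg, reached r = 0.43. The clones of the group carry no gene name, and the likeness gives them none.

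**Figure D4:**
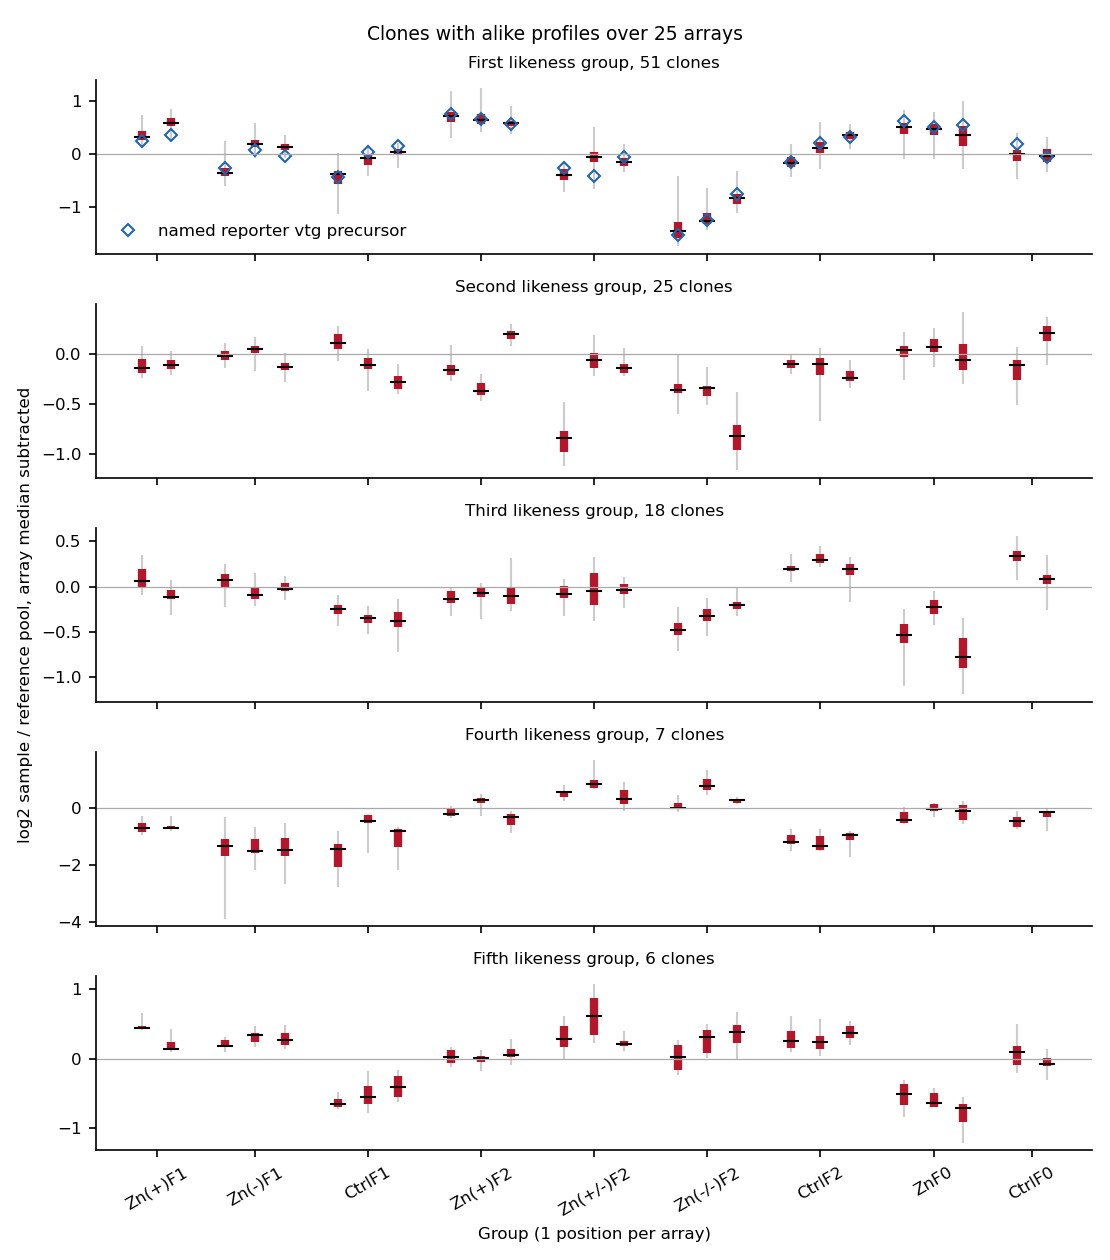
Centred log2 ratio of sample over reference pool (vertical axis) for the 5 likeness groups, 1 position per array: black dash for the median clone, red bar for the middle quartiles, grey line for the range, and blue diamonds in the first panel for the named reporter vtg precursor. The first group is lowest in Zn(-/-)F2 (medians -1.44, -1.25 and -0.83) and the diamonds follow its medians.

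The second likeness group, 25 clones from 7 plates with a median brightness of 11.4, did not separate ZnF0 from CtrlF0. Its median was 0.04, 0.06 and -0.07 on the ZnF0 arrays, against -0.11 and 0.20 on the CtrlF0 arrays, so the groups overlapped. On the Zn(-/-)F2 arrays its median was -0.37, -0.34 and -0.82, against -0.11, -0.11 and -0.25 in CtrlF2, with no overlap. The difference fitted on centred arrays was below 0 in all 25 clones, of which 0 were called as deposited and 2 after centring. Its lowest values were in single arrays of 2 groups, -0.84 in Zn(+/-)F2 replicate 1 and -0.82 in Zn(-/-)F2 replicate 3, whose group companions lay between -0.37 and -0.06. The named reporters most like it were the vtg reporter EBT_DamaRep_ASP1 G1 (r = 0.83 over 24 arrays) and GAPDH2, named for an enzyme of glycolysis (r = 0.79 over 25 arrays). This vtg reporter was dim, with a mean AveExpr of 6.05, where the lower quartile of all reporters was 6.37.

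The third and the fifth likeness group were low in both ZnF0 and CtrlF1. The third, 18 clones from 7 plates, had medians of -0.53, -0.23 and -0.78 in ZnF0, against 0.34 and 0.08 in CtrlF0, and of -0.25, -0.35 and -0.39 in CtrlF1, against 0.19, 0.29 and 0.19 in CtrlF2. Every clone of the third group lay below 0 on all ZnF0 and CtrlF1 arrays. The same held in Zn(-/-)F2, where its medians were -0.49, -0.32 and -0.20, while those of the fifth were 0.03, 0.31 and 0.39. Against CtrlF2, 3 of the 18 were called lower in Zn(-/-)F2 in the fit as deposited and 17 after centring. The fifth, 6 clones of which 4 were on plate 4, had -0.51, -0.64 and -0.72 in ZnF0, against 0.10 and -0.08 in CtrlF0, and -0.66, -0.55 and -0.41 in CtrlF1, against 0.25, 0.24 and 0.37 in CtrlF2. The F1 groups with zinc in their history stood above CtrlF1 in both likeness groups. The fifth was at 0.44 and 0.14 in Zn(+)F1 and at 0.19, 0.34 and 0.27 in Zn(-)F1. The third was at 0.07 and -0.11 in Zn(+)F1 and at 0.07, -0.10 and -0.03 in Zn(-)F1. After centring, all 6 clones of the fifth and 0 of the third were called higher in each of these comparisons with CtrlF1. All 18 and all 6 of these clones were called lower in the authors' deposited table both for ZnF0 against CtrlF0 and for CtrlF1 against CtrlF2, and so make up 24 of the 49 clones shared by these lists. Both groups were most like the named reporter cyplasin s, at r = 0.79 for the third and r = 0.88 for the fifth over 25 arrays. The fifth also had 7 Ene reporters that correlated with it at over 0.9, out of 748.

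The fourth likeness group, 7 clones from 5 plates, separated the F2 groups with a zinc history from CtrlF2. Its medians were -0.22, 0.27 and -0.31 in Zn(+)F2, 0.54, 0.85 and 0.33 in Zn(+/-)F2 and -0.00463, 0.78 and 0.27 in Zn(-/-)F2, against -1.18, -1.34 and -0.94 in CtrlF2. All 9 arrays lay above the 3 CtrlF2 arrays. The group was also low in CtrlF1, at -1.43, -0.47 and -0.83, and in both F1 groups with a zinc history. These had -0.69 and -0.70 in Zn(+)F1, and -1.36, -1.51 and -1.49 in Zn(-)F1. ZnF0 (-0.43, -0.03 and -0.13) overlapped with CtrlF0 (-0.45 and -0.15). In the fit on single arrays 7 of 7 were called higher in Zn(-/-)F2 and 6 of 7 in Zn(+/-)F2, both against CtrlF2. For Zn(+)F2 against CtrlF2 it called 1 of 7 as deposited and 3 after centring. The most alike named reporter was az aminotransferase, at r = 0.70 over 25 arrays, and no reporter outside the group correlated with it at over 0.9.

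**Figure D5:**
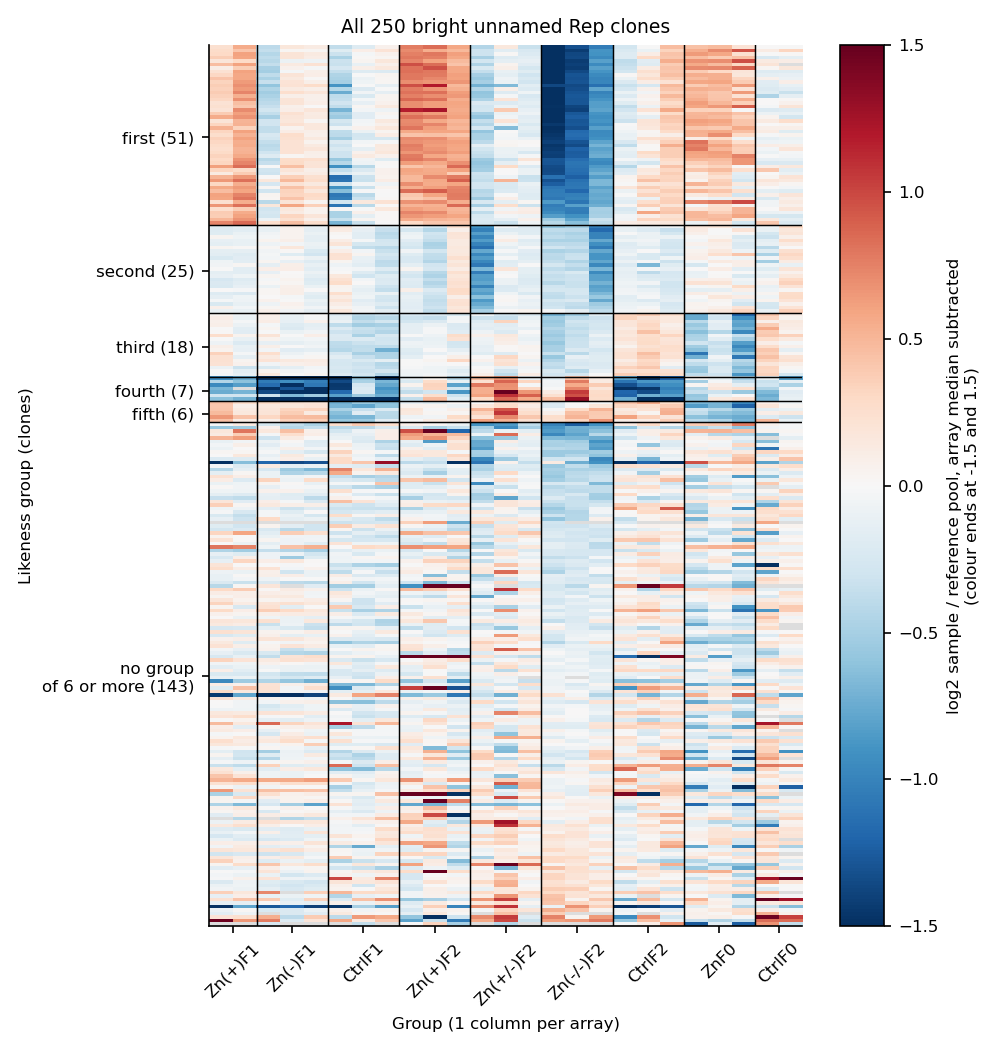
Centred log2 ratio of sample over reference pool (colour, ending at -1.5 and 1.5) for all 250 bright Rep clones (rows, by likeness group and then by mean in Zn(-/-)F2) on 25 arrays (columns, by group); grey marks a missing value. The 51 clones of the first group are all red in Zn(+)F2 and all blue in Zn(-/-)F2, and 43 to 50 of them are red on the ZnF0 arrays, and the 143 clones outside the 5 groups share no single pattern.

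The 143 clones outside these groups held, in the authors' deposited table, 56 of the 123 zinc calls, 10 higher and 46 lower. For CtrlF1 against CtrlF0 they held 56 of the 86 calls in the authors' deposited table, again 10 higher and 46 lower, and so all 10 of the clones that were higher in CtrlF1. By plate, the median centred log2 difference of ZnF0 from CtrlF0 in the array fit lay between -0.28 on plate 9 and 0.03 on plate 6, and that of Zn(-/-)F2 from CtrlF2 between -0.44 on plate 5 and -0.19 on plate 9. The clones of all 9 plates thus had a median below 0 in Zn(-/-)F2. The first group made up 10 of 37 clones on plate 5 and 0 of 10 on plate 9.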

How the data were processed

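The 4 comparison tables and the array values were used as deposited. Per the submitters' processing notes the authors used limma; its version, background correction and normalization: not given in the sources used here. Per the deposited readme, each table gives log2 fold changes, average log2 intensity, a raw and an adjusted p-value, and moderated t and log-odds scores. The deposited array values are log2 ratios. Their direction was checked against the tables for ZnF0, CtrlF0, CtrlF1 and CtrlF2 only, as the tables hold no other group. In the F2 groups, 7 of 8 pairs of arrays of 1 group and opposite dye had a correlation above 0. Zn(+)F1 and Zn(-)F1 held a single dye, and the direction of their ratios was not checked. Here limma 3.58.1 in R 4.3.3 was fitted to 26 distinct arrays with group and dye of the sample as terms, values as deposited, and Benjamini-Hochberg adjustment over all reporters (0.05). The fit was tested on simulated data. For arrays, their number limits the precision. One array titled differently from its zinc label was grouped by that label. Clones named by identifier were, per comparison, up to 2 largest rises and falls among those called (1 each for the zinc history comparisons), or else the smallest p. Same-numbered samples deviated together weakly or not at all (correlations from -0.29 to 0.26), and numbers were not used to pair samples. The correlations were above 0 in F1, at 0.26 and 0.17 for Zn(+)F1 with CtrlF1. For Zn(-)F1 with CtrlF1 they were 0.26, 0.15 and 0.07. The clones, lists and rules were chosen with earlier results of these data known. Summaries used Python 3.11.15, pandas 2.3.3 and scipy 1.17.1. Alternatives are in the closing section.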

Additional observations from a re-analysis of the deposited data

Results flagged for a closer look

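For 8 of the named clones the difference between zinc and control animals was not the same in F1 as in F0, by a test of that difference in the limma fit over all arrays. Most of these clones were named for a large change or a small p in comparisons that use some of the same arrays. The test is therefore not independent of how they were picked. The difference of differences is (Zn(+)F1 minus CtrlF1) minus (ZnF0 minus CtrlF0), on the log2 scale with SE and adjusted p over all reporters, of which 14.4% passed. The dye of the zinc samples differed between F0 and F1, and the median over all reporters was 0.38, against 0.07 after centring the arrays. EBT_DamaRep_ASP2 B3 had 2.42 ± 0.29 (adjusted p = 8.77e-05), being lower in zinc in F0 (-1.0) and higher in F1 (1.42). EBT_DamaRep_ASP7 A8 had -2.62 ± 0.59 (adjusted p = 0.00618), with differences of 1.15 in F0 and -1.47 in F1. EBT_DamaRep_ASP2 C11 had 1.91 ± 0.37 (adjusted p = 0.00291), EBT_DamaRep_ASP5 C3 1.77 ± 0.45 (adjusted p = 0.0125), EBT_DamaRep_ASP4 B5 1.76 ± 0.52 (adjusted p = 0.0291), EBT_DamaRep_ASP4 H9 1.51 ± 0.27 (adjusted p = 0.00195), EBT_DamaRep_ASP8 E4 1.44 ± 0.35 (adjusted p = 0.00986) and EBT_DamaRep_ASP1 A12 1.27 ± 0.37 (adjusted p = 0.0296). After centring, all but EBT_DamaRep_ASP4 B5 (adjusted p = 0.0869) passed. In F2, EBT_DamaRep_ASP1 A12 alone among the named clones differed from F0 in the same way, by 1.60 ± 0.32 (adjusted p = 0.0143), with 1.32% of all reporters passing. Over all bright Rep clones, 58 of 247 passed for F1, 57 of them above 0, and 1 of 247 for F2. What these differences rest on was not tested.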

How the results depend on the processing

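Counts of called bright Rep clones depended on the processing in 59 of 129 alternatives beside leaving out 1 array; the cause was not tested unless the alternative's construction shows it (fewer clones or samples). Values below follow the fit's counts of 18 (ZnF0 against CtrlF0), 0 (CtrlF1 against CtrlF0), 1 (CtrlF2 against CtrlF0), 48 (CtrlF1 against CtrlF2), 77 (Zn(+)F1), 43 (Zn(-)F1), 3 (Zn(+)F2), 8 (Zn(+/-)F2) and 64 (Zn(-/-)F2), the last 5 against the control of their generation. Without the dye term the counts were 1 for ZnF0, 6 for CtrlF1 against CtrlF2, 9 for Zn(+)F1 and 6 for Zn(-)F1. Quantile normalization gave 45 for ZnF0, 30 for CtrlF1 against CtrlF0, 2 for CtrlF2 against CtrlF0, 1 for Zn(+)F2 and 13 for Zn(+/-)F2. Fits on the 2 groups compared gave 0 for CtrlF2 against CtrlF0, Zn(+)F2, Zn(+/-)F2 and Zn(-/-)F2, and could not be made for Zn(+)F1 and Zn(-)F1, where dye and group cannot be told apart. With the replicate block the counts were 4 for ZnF0, 0 for CtrlF2 against CtrlF0 and 5 for Zn(+)F2, and within 1.5 times elsewhere. The main fit did not take the numbers to pair the samples. The 150 brightest clones gave 11 for ZnF0, 0 for CtrlF2 against CtrlF0, 30 for CtrlF1 against CtrlF2, 0 for Zn(+)F2 and 4 for Zn(+/-)F2, and the 400 brightest 7 for Zn(+)F2. The authors' deposited tables gave 123, 86, 36 and 88 for their 4 comparisons, in the order above. Among the 150 brightest these were 78, 47, 16 and 44, and with the deposited t divided by its robust SD 22, 29, 1 and 15. Leaving out 1 array gave 1 to 24 for ZnF0, 0 to 1 for CtrlF1 against CtrlF0, 0 to 4 for CtrlF2 against CtrlF0, 5 to 57 for CtrlF1 against CtrlF2, 30 to 76 for Zn(+)F1, 22 to 41 for Zn(-)F1, 1 to 29 for Zn(+)F2, 2 to 7 for Zn(+/-)F2 and 49 to 70 for Zn(-/-)F2; where it left a lone sample, that sample was assumed to vary like the other groups.

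Centring each array on its median gave 50 for ZnF0, 17 for CtrlF1 against CtrlF0, 41 for Zn(+)F1, 18 for Zn(-)F1, 9 for Zn(+)F2 and 98 for Zn(-/-)F2. The other alternatives were chosen after seeing the data. Centred without the dye term, the counts were 40 for ZnF0, 14 for CtrlF1 against CtrlF0, 3 for CtrlF2 against CtrlF0, 46 for Zn(+)F1, 26 for Zn(-)F1, 16 for Zn(+)F2 and 97 for Zn(-/-)F2. Centred and on the 2 groups compared, they were 28 for ZnF0, 0 for CtrlF2 against CtrlF0, 6 for CtrlF1 against CtrlF2, 0 for Zn(+)F2 and Zn(+/-)F2, and 65 for Zn(-/-)F2. Without CtrlF2 and Zn(+)F2 arrays that are not part of the comparison, they were 61 for ZnF0, 22 for CtrlF1 against CtrlF0, 36 for Zn(+)F1 and 21 for Zn(-)F1. With CtrlF0 replicates 1 and 3 as separate samples, they were 46 for ZnF0, 16 for CtrlF1 against CtrlF0 and 10 for CtrlF2 against CtrlF0. For named clones, 267 alternative results kept their direction and side of the threshold, 49 lost and 19 gained a call, and 0 reversed. With 2 or 3 arrays per group, the number of arrays limits the precision, and CtrlF0 rests on 2.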
